A study of Mus musculus with 28 samples.

Results

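The mitotic genes examined here are *Cdk1*, *Top2a*, *Aurka*, *Aurkb*, *Plk1*, *Cdc20*, *Ccnb1*, *Ccnb2*, *Bub1* and *Birc5*, 10 genes taken by symbol and followed in yolk-sac macrophages (YSM) and in brain microglia of the mouse. Their 19 probes lie among 45281 on the array. A probe counted as detected on an array at a detection p under 0.01 against the negative control beads of that array, and a gene was measured when a probe with 1 gene symbol was detected on at least 3 arrays. This left 7 of the 10 genes among 10630 genes measured. No probe carried the symbol *Ccnb1*, and the single *Ccnb2* probe and both *Bub1* probes were detected on 0 of 25 arrays, so these 3 genes have no level here.

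All mice were of the strain given in the labels as C56BL/6, untreated, and without a named allele. Column names of the microglial arrays carry WT (wild type), and those of the YSM arrays give no genotype. The sorting gate took Ly6C- cells that were CD11b+, CD64+ and F4/80+ with low CD45, and pools of several animals, irrespective of sex, were hybridized. The groups were YSM of E10.5 embryos (4 arrays) and brain microglia, with 3 distinct arrays each, from 5 embryonic stages (E10.5 and then every other day as far as E18.5), from newborns (P0) and from adults aged 2 months. Of 28 deposited columns, 3 adult columns repeated another adult column value for value and were counted once, which left 25 arrays. Values are log2 normalized signals, so a difference of 1 is a 2-fold change, and levels are compared between stages of 1 gene, never between genes.

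These genes run cell division at its last phase. CDK1 bound to a B-type cyclin (the products of *Ccnb1* and *Ccnb2*) drives cells into mitosis, Aurora A (*Aurka*) and PLK1 build the spindle poles, and topoisomerase II alpha (*Top2a*) untangles the replicated DNA. Aurora B (*Aurkb*) and survivin (*Birc5*) belong to the chromosomal passenger complex, which corrects faulty attachment of chromosomes to the spindle, BUB1 signals such faults to the checkpoint, and CDC20 then activates the anaphase-promoting complex, which ends mitosis by marking cyclin B for destruction. Transcripts of such genes accumulate in G2 and mitosis and are low in resting cells, which is why their level is commonly read as a measure of dividing cells. Microglia descend from yolk-sac macrophages that enter the embryonic brain and multiply there, whereas adult microglia divide rarely.

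Promoters of such genes are known for 2 short elements, the CCAAT box bound by NF-Y and the cell cycle genes homology region (CHR), bound by MuvB-containing complexes. RefSeq windows on GRCm38.p6, from 250 bases before to 50 bases after each gene's start, were found for 9 of the 10 genes, and *Aurkb* had no entry. The sequences of *Cdk1* and *Top2a*, whose levels changed least within the embryonic brain, and of *Plk1* and *Cdc20*, which changed more, are shown 5′ to 3′ along the gene, with every match on either strand in capitals. The CHR was searched as TTTGAA and as TTTAAA, the second of which reads alike on both strands, and the CCAAT box as CCAAT.
Cdk1, chr10:69352863-69353162, minus strand: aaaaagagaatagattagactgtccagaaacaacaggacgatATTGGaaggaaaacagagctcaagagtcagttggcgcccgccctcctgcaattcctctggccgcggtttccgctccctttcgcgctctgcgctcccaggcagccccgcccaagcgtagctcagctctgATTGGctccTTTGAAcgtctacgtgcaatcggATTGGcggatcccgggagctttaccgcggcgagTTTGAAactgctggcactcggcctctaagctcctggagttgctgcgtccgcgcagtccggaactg
Top2a, chr11:99024140-99024439, minus strand: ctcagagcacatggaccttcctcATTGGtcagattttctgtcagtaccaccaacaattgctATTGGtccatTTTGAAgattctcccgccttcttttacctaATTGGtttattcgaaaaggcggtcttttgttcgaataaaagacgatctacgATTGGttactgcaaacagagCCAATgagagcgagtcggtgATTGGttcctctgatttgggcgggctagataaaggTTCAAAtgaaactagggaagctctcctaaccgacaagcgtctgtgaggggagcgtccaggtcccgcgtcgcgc
Plk1, chr7:122159185-122159484, plus strand: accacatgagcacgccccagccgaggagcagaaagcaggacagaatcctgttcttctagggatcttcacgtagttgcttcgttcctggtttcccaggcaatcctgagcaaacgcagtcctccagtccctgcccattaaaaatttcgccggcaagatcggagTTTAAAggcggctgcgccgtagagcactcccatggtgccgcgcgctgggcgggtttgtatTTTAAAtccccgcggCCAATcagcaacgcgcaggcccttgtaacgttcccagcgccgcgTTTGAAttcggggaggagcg
Cdc20, chr4:118437294-118437593, minus strand: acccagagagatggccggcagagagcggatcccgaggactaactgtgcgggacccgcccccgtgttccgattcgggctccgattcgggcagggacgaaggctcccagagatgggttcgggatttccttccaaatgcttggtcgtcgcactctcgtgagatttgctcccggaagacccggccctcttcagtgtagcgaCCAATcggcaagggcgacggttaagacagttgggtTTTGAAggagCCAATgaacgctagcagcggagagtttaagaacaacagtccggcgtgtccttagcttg
*Cdk1* carried TTTGAA at 71 and 15 bases before the gene start and 3 CCAAT boxes, and *Cdc20* carried TTTGAA at 18 bases before it and 2 CCAAT boxes. TTTGAA or TTTAAA stood in 8 of 9 windows, all but that of *Bub1*, against 27.6% of the 32851 windows in the table and 19.2% of the 8644 windows of genes measured here. CCAAT stood in 8 of 9 windows, all but that of *Birc5*, against 37.4% of all windows and 39.1% of those of measured genes. No match overlapped another in the windows shown. Both elements were thus present in the windows of genes with either course, and a match is a description of the letters and not evidence of binding.

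The mean log2 level of the 7 measured genes, taken per array, was highest in YSM and E10.5 microglia and lower at later stages. It averaged 11.75 ± 0.14 in YSM (SD, n = 4) and, with n = 3 each, 11.95 ± 0.14 at E10.5, 11.34 ± 0.08 at E12.5, 10.96 ± 0.15 at E14.5, 10.51 ± 0.04 at E16.5, 10.64 ± 0.04 at E18.5, 10.54 ± 0.26 at P0 and 6.57 ± 0.20 in adults. The arrays of E10.5 microglia, between 11.80 and 12.05, overlapped those of YSM, between 11.57 and 11.87. E12.5 arrays, between 11.26 and 11.42, overlapped neither neighbour. From E16.5 to P0 the level was nearly flat, and the P0 arrays, spread between 10.28 and 10.79, covered the whole range of E16.5 and E18.5 and reached the lowest E14.5 array at 10.78. Adult arrays, between 6.39 and 6.79, lay apart from all others. No test was made on this mean.

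**Figure D1:**
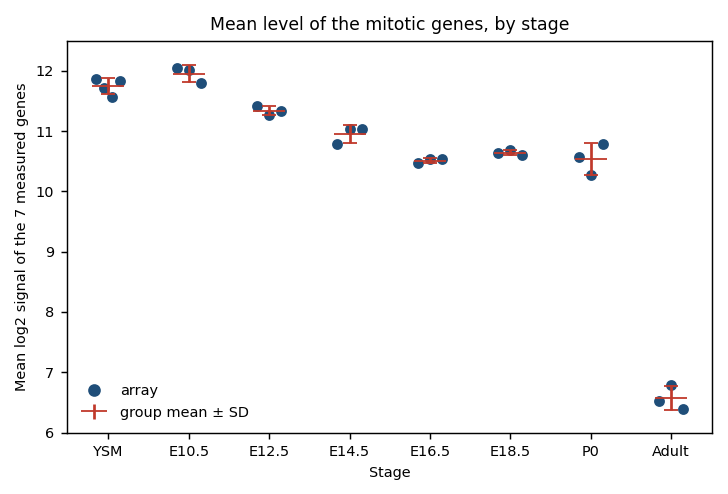
Mean log2 signal of the 7 measured mitotic genes on each array (points) at each stage, with group mean and SD (bars); the vertical axis starts at 6. The level stood near 12 in YSM and at E10.5, stepped down to 10.51 by E16.5, stayed near it to P0, and was 6.57 in adults.

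Across the 8 groups all 7 genes passed limma's moderated F test (Benjamini-Hochberg adjusted p between 5.281e-17 and 1.35e-13), where 91% of all genes did. The adult mean was the lowest in each gene. From the highest to the lowest group mean the genes spanned 26.7-fold (*Cdk1*) to 60.3-fold (*Birc5*), which placed them at percentiles 97.9 to 99.4 of all genes by span. Each of the 7 was detected on all 22 arrays of YSM, embryos and newborns, and between 5 and 7 of them on an adult array. In bulk samples, fewer cells of a type and less RNA per cell cannot be told apart, so a lower level can mean fewer dividing cells or less transcript in each.

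**Figure D2:**
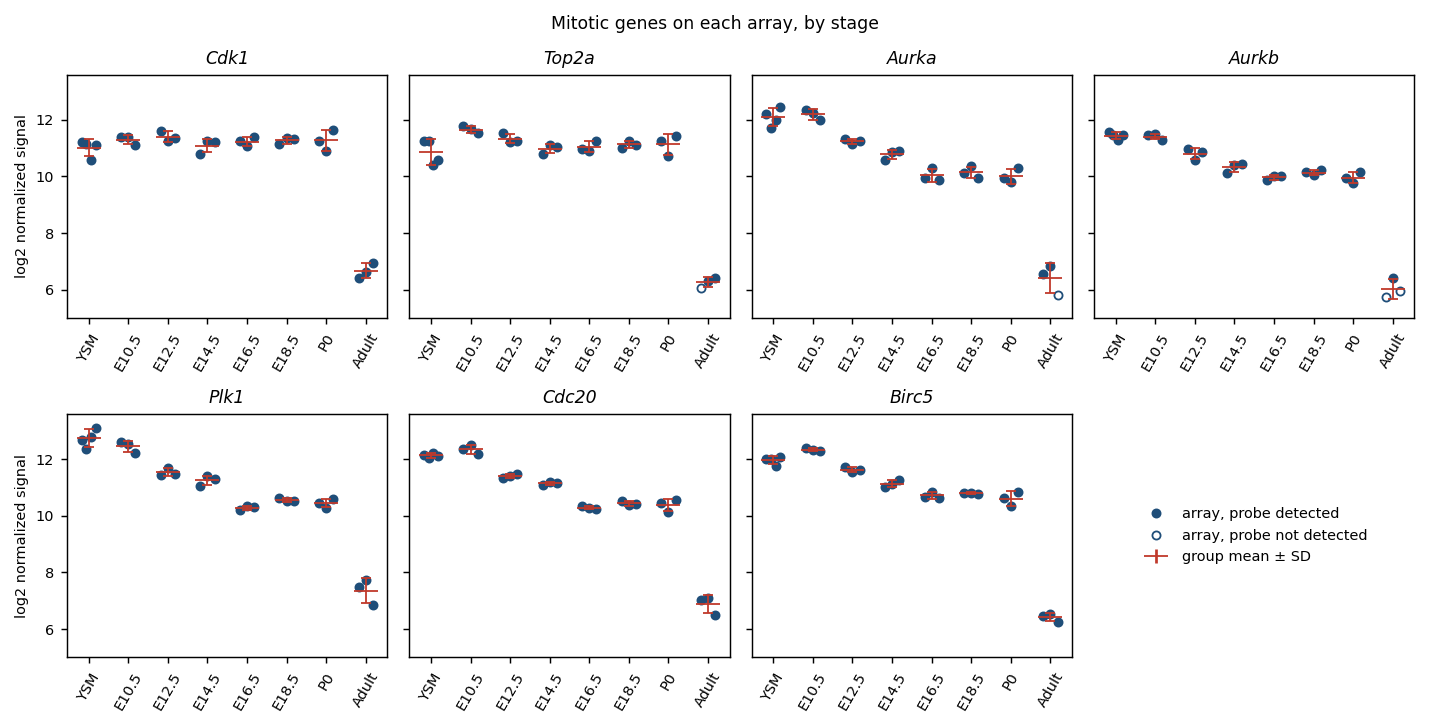
Log2 normalized signal of each measured mitotic gene on each array, by stage (filled points: probe detected; open points: not detected), with group mean and SD in red. *Cdk1* and *Top2a* lay between 10.39 and 11.77 on every array before adulthood, the other 5 genes stepped down between E10.5 and E16.5, and all 7 fell in adults.

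*Cdk1*, the mitotic kinase itself, differed little between stages before adulthood, except under scaling to the 75th percentile, where it was lower at P0 than at E10.5. In YSM it read 11.23, 11.16, 10.57 and 11.11. In microglia it read 11.41, 11.39 and 11.11 at E10.5, 11.61, 11.24 and 11.37 at E12.5, 10.81, 11.25 and 11.21 at E14.5, 11.26, 11.07 and 11.38 at E16.5, 11.15, 11.37 and 11.33 at E18.5, and 11.27, 10.90 and 11.65 at P0. No neighbouring pair of these groups failed to overlap, and no step between neighbouring stages before adulthood was called. From E10.5 to P0 the difference was -0.03 ± 0.20 (SE, adjusted p = 0.9112); under scaling to the 75th percentile, which put the median of all genes at -0.46 in place of -0.05, it was -0.73 and called lower (adjusted p = 0.004441). In adults *Cdk1* read 6.42, 6.64 and 6.94, all detected. A second probe for *Cdk1* was detected on 3 arrays and did not track the first (r = -0.33 over 25 arrays), and another on 0 arrays, so its course rests on 1 probe.

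*Top2a* was 1 of 2 genes higher in E10.5 microglia than in YSM. It read 11.77, 11.66 and 11.52 in E10.5 microglia, against 11.24, 11.27, 10.39 and 10.59 in YSM, where the arrays fell into a higher and a lower pair. The difference was 0.78 ± 0.20 (adjusted p = 0.008892), and 0.35 (adjusted p = 0.1483) when its probes were averaged. Within the brain *Top2a* read 11.52, 11.22 and 11.26 at E12.5, 10.81, 11.10 and 11.03 at E14.5, 10.98, 10.90 and 11.26 at E16.5, 11.01, 11.27 and 11.10 at E18.5, and 11.27, 10.71 and 11.42 at P0. No single step was called, while P0 lay below E10.5 by a called difference of -0.52 ± 0.21 (adjusted p = 0.03744). That call was lost without E10.5 replicate 1 or 2, or without P0 replicate 2 (difference as small as -0.31, adjusted p up to 0.2245). Adult arrays read 6.06, 6.31 and 6.41, the first not detected. A second probe, detected on all 25 arrays, differed by -0.83 between adults and P0 where the one used differed by -4.87, and correlated with it at r = 0.66. Another probe, detected on 3 arrays, differed by -0.4 there (r = 0.25). Averages over probes took in both, so they lean partly on a probe near background.

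*Aurka*, the Aurora kinase of the spindle poles, fell at 2 steps within the embryonic brain. It read 12.35, 12.24 and 11.99 in E10.5 microglia, against 12.19, 11.71, 11.99 and 12.47 in YSM, and these groups overlapped. It then read 11.33, 11.14 and 11.25 at E12.5, 10.59, 10.85 and 10.91 at E14.5, 9.94, 10.30 and 9.89 at E16.5, 10.14, 10.37 and 9.96 at E18.5, and 9.95, 9.79 and 10.30 at P0. From E12.5 to E16.5 no group overlapped the one before it, and E16.5, E18.5 and P0 overlapped one another. The fall was called at E12.5 against E10.5 (-0.95 ± 0.22, adjusted p = 0.002899) and at E16.5 against E14.5 (-0.74 ± 0.22, adjusted p = 0.015), the second lost on leaving out any of E14.5 replicates 2 and 3 and E16.5 replicates 1 and 3 (adjusted p up to 0.05908). Adult arrays read 6.56, 6.85 and 5.83, the last not detected.

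*Aurkb* read 11.45, 11.49 and 11.29 in E10.5 microglia, against 11.58, 11.46, 11.28 and 11.45 in YSM, a difference of -0.03 ± 0.14. It fell to 10.97, 10.59 and 10.85 at E12.5, by 0.61 ± 0.15 on the log2 scale (adjusted p = 0.005032). The later values were 10.13, 10.42 and 10.45 at E14.5, 9.87, 10.02 and 10.03 at E16.5, 10.16, 10.04 and 10.22 at E18.5, and 9.95, 9.76 and 10.16 at P0. Neither the step to E14.5 (-0.47 ± 0.15, adjusted p = 0.1238) nor that to E16.5 (-0.36 ± 0.15, adjusted p = 0.07565) was called, although no group overlapped the one before it. The step to E14.5 was called without background correction (adjusted p = 0.04936), in the authors' table (0.04934) and with the replicate block (0.02387). The step to E16.5 was called without background correction (adjusted p = 0.03324), with normexp (0.04046), under 75th percentile scaling (0.01799), in the authors' table (0.03293) and with the replicate block (0.01559). Adult arrays read 5.74, 6.41 and 5.94, and the probe was detected on 1 of 3.

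*Plk1* read 12.59, 12.54 and 12.22 in E10.5 microglia, against 12.68, 12.37, 12.79 and 13.11 in YSM, and the groups overlapped. Its 2 called steps were of similar size. At E12.5 it read 11.44, 11.70 and 11.47 (-0.91 ± 0.19 from E10.5, adjusted p = 0.001085), and after 11.06, 11.40 and 11.29 at E14.5 it read 10.22, 10.35 and 10.30 at E16.5 (-0.96 ± 0.19, adjusted p = 0.001029). It read 10.63, 10.53 and 10.51 at E18.5, all above the E16.5 arrays without passing the test (0.27 ± 0.19, adjusted p = 0.5675), and 10.46, 10.29 and 10.58 at P0. Adult arrays read 7.47, 7.72 and 6.86, all detected.

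*Cdc20* was called at the same 2 steps. It read 12.37, 12.49 and 12.18 in E10.5 microglia, against 12.16, 12.05, 12.22 and 12.10 in YSM. Values then were 11.35, 11.40 and 11.47 at E12.5 (-0.94 ± 0.13, adjusted p = 3.506e-05), 11.07, 11.18 and 11.16 at E14.5, and 10.33, 10.28 and 10.24 at E16.5 (-0.85 ± 0.13 from E14.5, adjusted p = 0.0002128). Arrays at E18.5 read 10.53, 10.38 and 10.41, those at P0 10.44, 10.14 and 10.57, and those of adults 7.02, 7.09 and 6.51. Its other 3 probes correlated with the one used at r = 0.99, 0.99 and 0.84 over 25 arrays. In a limma fit over probes none of these 3 passed at E16.5 against E14.5 (-0.42, -0.54 and -0.54, adjusted p = 0.09429, 0.05853 and 0.109), and at E12.5 against E10.5 2 of them did (-0.91 and -0.61, adjusted p = 0.001213 and 0.03914) and 1 did not (-0.26, adjusted p = 0.473), so the size of the *Cdc20* steps depended on the probe. In the same fit the probe with r = 0.84 was higher in E10.5 microglia than in YSM (1.13, adjusted p = 0.001996). The other 2 differed by -0.09 and -0.02 there and did not pass.

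*Birc5* was the second gene higher in E10.5 microglia than in YSM and the only one of the 7 called at every step up to E16.5. It read 12.38, 12.34 and 12.27 in E10.5 microglia, against 12.02, 11.99, 11.75 and 12.07 in YSM (0.37 ± 0.11, adjusted p = 0.02784). It fell to 11.73, 11.53 and 11.63 at E12.5 (-0.69 ± 0.12, adjusted p = 0.0002589), to 11.01, 11.12 and 11.25 at E14.5 (-0.51 ± 0.12, adjusted p = 0.04092) and to 10.68, 10.85 and 10.63 at E16.5 (-0.41 ± 0.12, adjusted p = 0.01544). On leaving out single arrays the call against YSM was lost (YSM replicate 3 or any E10.5 array, adjusted p up to 0.09707), as were that at E14.5 (any of 11 arrays, adjusted p up to 0.1709) and that at E16.5 (E14.5 replicate 3, E16.5 replicate 1 or 3, adjusted p up to 0.07671). E18.5 arrays read 10.82, 10.81 and 10.77, P0 arrays 10.64, 10.35 and 10.84, and adult arrays 6.45, 6.53 and 6.26, all detected. Its other 2 probes followed it at r = 0.99. Over probes, both passed in E10.5 microglia against YSM and at E12.5, neither passed at E14.5 (adjusted p = 0.1522 and 0.2051), nor did the probe used when adjusted over probes (0.06036), and 1 of them passed at E16.5 (adjusted p = 0.06413 and 0.01141).

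**Figure D3:**
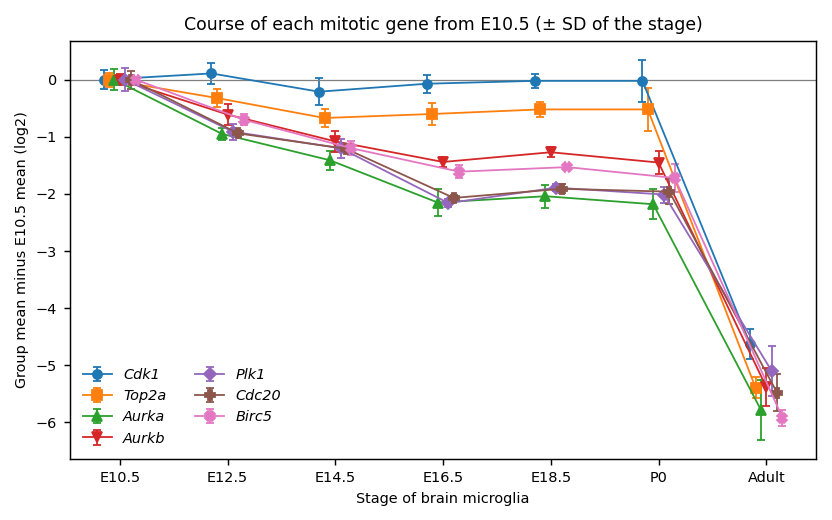
Group mean of each measured mitotic gene minus its own E10.5 mean (log2), with the SD of the stage, in brain microglia by stage. *Cdk1* and *Top2a* stayed within 0.32 and 0.67 between their highest and lowest group means up to P0, the other 5 genes moved over 1.45 to 2.18, and all 7 were lowest in adults; under 75th percentile scaling *Cdk1* was also lower at P0 than at E10.5.

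Read by step, the first question is whether brain microglia at E10.5 differed from the YSM of the same age. *Top2a* and *Birc5* were higher, and the other 5 genes did not pass the test, with differences between -0.29 and 0.29. Another *Cdc20* probe, not the one used, was higher by 1.13 (adjusted p = 0.001996 in the limma fit over probes). Of all genes 19.6% were called, 10% higher and 9.51% lower, and with 7 genes a count of 2 is not read as a result about them. Arrays of the 2 groups did not overlap in 2 of 7 genes, against 29.5% of all genes. *Birc5* was not called under 75th percentile scaling (adjusted p = 0.09775). Arrays of YSM had a background signal between 60.8 and 69.01, below the 101 to 144.9 of all microglial arrays, so tissue and hybridization cannot be told apart in this comparison. The summed level of the 10 erythroid markers with a probe ranged over 7371 to 22450 in E10.5 microglia and 4826 to 62180 in YSM, and that of 11 granulocyte and early myeloid markers over 16480 to 40870 in E10.5 microglia and 30820 to 40860 in YSM. The 11 yolk-sac endoderm markers summed to 362.8 to 2210 in E10.5 microglia, with 1 to 5 detected, and to 687.2 to 39180 in YSM, with 3 to 10 detected, and *Foxa2* was detected in neither. The part of these cells in the result was not tested.

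At E12.5 against E10.5, 5 of 7 genes fell, *Aurka*, *Aurkb*, *Plk1*, *Cdc20* and *Birc5*, by 1.52- to 1.93-fold, and none rose. Of all genes 30.7% were called and 16.2% were called lower, and 51.3% had no overlap between the groups, against 6 of the 7. *Cdk1* differed by 0.10 ± 0.20 and *Top2a* by -0.32 ± 0.21, neither called, though under 75th percentile scaling *Top2a* was called lower (-0.67, adjusted p = 0.02151). All 5 calls held on leaving out each array in turn. Granulocyte and early myeloid markers moved in the same step, with summed levels of 427.2 to 8877 at E12.5 against 16480 to 40870 at E10.5, and between 0 and 9 of 11 detected at E12.5 against 7 to 8 at E10.5. *Ctsg* and *Ngp* of that list were detected on no array of either stage. Erythroid markers summed to 11780 to 43250 at E12.5 and 7371 to 22450 at E10.5, and the 13 neural markers to 1405 to 3641 at E12.5 and 1105 to 1233 at E10.5. Their part in the result was not tested.

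All 7 genes lay lower at E14.5 than at E12.5, by 0.27 to 0.51 in log2, and in 6 the arrays did not overlap, against 27.7% of all genes without overlap. *Birc5* alone was called, where 1.38% of all genes were called, 0.875% higher and 0.508% lower. Erythroid markers summed to 4748 to 5585 at E14.5 and 11780 to 43250 at E12.5, with *Hbb-bh1* at 6.18 at E14.5 and 11.24 at E12.5. *Hba-x*, *Hbb-y*, *Slc4a1* and *Tfrc* were also lower at E14.5. *Epor* stood higher (8.71 at E14.5 and 7.99 at E12.5) and *Alas2* was nearly level (7.71 at E14.5 and 7.66 at E12.5). Neural markers summed to 2454 to 4537 at E14.5 and 1405 to 3641 at E12.5. Their part in the result was not tested. At E16.5 against E14.5, *Aurka*, *Plk1*, *Cdc20* and *Birc5* fell by 1.33- to 1.94-fold, where 32.9% of all genes were called, 12.9% higher and 20% lower, and 53.9% had no overlap, against 5 of the 7. Leaving out E14.5 replicate 3, E16.5 replicate 1 or E16.5 replicate 3 left 2 genes called there. Background signal was 107.9 to 109.1 on E16.5 arrays and 124.2 to 144.9 on E14.5 arrays. Probes detected numbered 16155 to 16966 at E16.5 and 15038 to 16099 at E14.5. Stage and hybridization thus cannot be told apart in this step. The granulocyte and early myeloid list, with up to 9 of 11 markers detected at E14.5, had 0 of 11 detected at E16.5. Erythroid markers summed to 1898 to 2410 at E16.5, with 4 to 5 of 10 detected, and to 4748 to 5585 at E14.5, with 6 to 7 detected. *Hbb-bh1* and *Hba-x* were detected on no array at E16.5 and *Hbb-y* on 2 of 3, while *Alas2* stood higher, at 9.28 at E16.5 and 7.71 at E14.5. Neural markers summed to 2262 to 2364 at E16.5, with 5 of 13 detected, and to 2454 to 4537 at E14.5, with 5 to 6 detected. *Map2*, *Stmn2*, *Dcx*, *Nes* and *Tbr1* were detected on all arrays of both stages, and *Sox2*, *Sox3*, *Pax6* and *Hes5* on none. The part of these cells in the fall was not tested.

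From E16.5 to birth none of the 7 genes passed the test. At E18.5 all 7 genes lay slightly above E16.5, by 0.05 to 0.27, and at P0 the differences from E18.5 ran from -0.19 to 0. In both steps limma called 0 of 7, also 0 at an unadjusted p under 0.05, and the Tukey comparison called 0 as well. At E18.5, 2.32% of all genes were called, 1.37% higher and 0.95% lower, and 23.6% had no overlap, against 3 of the 7. At P0, 0.0564% were called, 0.047% higher and 0.00941% lower, and 9.81% had no overlap, against 0 of the 7. The SE of these differences was 0.12 to 0.22, so shifts of this size were not detectable with 3 arrays a stage.

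P0 microglia stood well below E10.5 microglia in 5 genes. *Aurka* was 4.54-fold lower at P0 (-2.18 ± 0.22), *Plk1* 4.02-fold (-2.01 ± 0.19), *Cdc20* 3.90-fold (-1.96 ± 0.13), *Birc5* 3.29-fold (-1.72 ± 0.12) and *Aurkb* 2.74-fold (-1.45 ± 0.15), with adjusted p between 4.712e-10 and 1.161e-07. With *Top2a*, 6 of 7 genes were called lower, where 60.2% of all genes were called, 27.6% higher and 32.5% lower, and 69.3% had no overlap, against 6 of the 7. Under 75th percentile scaling the 5 differences were larger, at -2.86 for *Aurka*, -2.74 for *Plk1*, -2.69 for *Cdc20*, -2.43 for *Birc5* and -2.09 for *Aurkb*, where the median of all genes was -0.46. Granulocyte and early myeloid markers summed to 339.9 to 686.5 at P0 and 16480 to 40870 at E10.5, erythroid markers to 1208 to 1804 at P0 and 7371 to 22450 at E10.5, and neural markers to 2717 to 4456 at P0 and 1105 to 1233 at E10.5. The part of these cells in the result was not tested. Probes detected numbered 16339 to 17148 on P0 arrays and 14307 to 14839 on E10.5 arrays, and the part of this in the result was not tested. The division between these 5 genes and the pair *Cdk1* and *Top2a* was seen after the values were known and was not tested.

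The largest step separated adults from newborns. All 7 genes fell, where 51.1% of all genes were called, 24.2% higher and 26.9% lower, and none overlapped, against 55.1% of all genes without overlap. *Top2a* was 29.2-fold lower in adults than at P0 (-4.87 ± 0.21), *Cdk1* 24.4-fold (-4.61 ± 0.20), *Birc5* 18.3-fold (-4.20 ± 0.12), *Aurkb* 15.2-fold (-3.92 ± 0.15), *Aurka* 12.1-fold (-3.60 ± 0.22), *Cdc20* 11.4-fold (-3.51 ± 0.13) and *Plk1* 8.54-fold (-3.09 ± 0.19), with adjusted p between 1.479e-15 and 4.883e-11. The adult signal was detected on 1 of 3 arrays for *Aurkb* and on 2 of 3 for *Aurka* and *Top2a*, so the size of these 3 folds rests partly on signals not above background. *Cdk1* and *Top2a* had the largest differences here, but the smallest, -2.10 and -2.03, when the probes of a gene were averaged. For each of these 2 genes that average took in a probe detected on 3 arrays only. Against E10.5, adults were lower by 24.9-fold (*Cdk1*) to 60.3-fold (*Birc5*), again 7 of 7, where 66.3% of all genes were called, 30.6% higher and 35.6% lower, and 70.2% had no overlap. Without background correction the median difference of the 7 genes between adults and P0 was -2.71 in place of -3.92. The size of the fall and the order of the genes thus depended on the processing, while all 7 genes were lower and called under each setting run. Adult suspensions were in addition passed through a density gradient, and age and preparation cannot be told apart in this step. Markers of other cells moved in it too. The 13 neural markers summed to 403.5 to 497.1 in adults, with 0 to 1 detected, and to 2717 to 4456 at P0, with 5 to 6 detected, and *Map2* stood at 5.63 in adults and 10.35 at P0. Of 8 endothelial markers 2 to 3 were detected in adults and 6 to 7 at P0, with summed levels of 950.7 to 1101 in adults and 960.9 to 2097 at P0. Erythroid markers summed to 5076 to 5631 in adults and 1208 to 1804 at P0, with 3 to 4 of 10 detected in each group. *Alas2* and *Slc4a1* stood higher in adults (11.7 in adults and 7.32 at P0, and 10.35 in adults and 6.03 at P0), *Epor* and *Tfrc* lower (6.31 in adults and 8.51 at P0, and 8.92 in adults and 9.52 at P0), and the other 6 were detected in neither group. The part of these cells in the result was not tested.

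**Figure D4:**
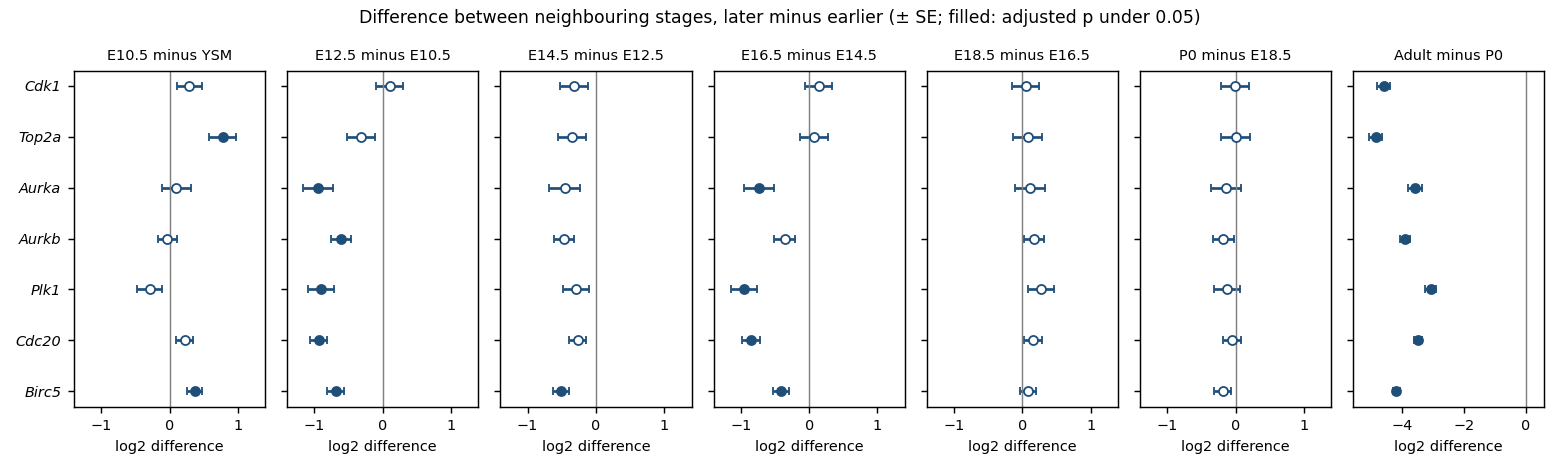
Log2 difference of each measured mitotic gene between neighbouring stages, later minus earlier, with its SE (filled: adjusted p under 0.05 over all genes); the last panel has its own scale. Called falls were 5 at E12.5, 1 at E14.5 and 4 at E16.5, none at E18.5 or P0, and 7 in adults.

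Within some stages the genes also moved together from array to array. E10.5 replicate 3, E14.5 replicate 1 and P0 replicate 2 were each the lowest array of their group in all 7 genes, and P0 replicate 3 was the highest in all 7. In YSM, by contrast, replicate 2 was the lowest in 3 genes and replicate 3 in 4. At E16.5 and at E18.5 no array was the lowest in more than 3 genes. In adults replicate 3 was the lowest in *Aurka*, *Plk1*, *Cdc20* and *Birc5* but the highest in *Cdk1* and *Top2a*. Over 25 arrays the 21 pairs of genes correlated at r = 0.80 to 0.99 (median 0.96), which mostly carries the stages, and within groups at -0.21 to 0.85 (median 0.49). Arrays share their normalization and depth, so these values are a description.

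The sorted cells carried the markers of their lineage. All 12 microglia and macrophage markers with a probe were detected on every array, and their summed level ranged over 50040 to 55320 in YSM, 47010 to 59970 at E10.5, 73410 to 105100 at E12.5, 95280 to 123000 at E14.5, 145900 to 153800 at E16.5, 163100 to 171400 at E18.5, 159800 to 198300 at P0 and 210100 to 282300 in adults. The adult arrays, lowest in the mitotic genes, were highest in this sum. Of the erythroid list, *Klf1*, *Gata1* and *Epb42* were detected on no brain array and *Tfrc* on every one. The 8 haematopoietic progenitor markers summed to 2040 to 2673 in YSM, 2348 to 2691 at E10.5 and 1886 to 3488 at E12.5. They summed to 1521 to 2280 at E14.5, 1560 to 1631 at E16.5 and 1713 to 2044 at E18.5. At P0 they summed to 1698 to 2024 and in adults to 2984 to 3075. *Kit* stood lower in adults than at P0 (4.64 and 6.49) and *Cd34* higher (10.35 and 7.81). Their part in the results was not tested.

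Genes that work with the 10 were taken from 11 lists of 153 genes, 130 of them measured. Of these 130 genes, 18 were higher and 14 lower in E10.5 microglia than in YSM, 51 fell at E12.5 and none rose, 3 fell at E14.5, 52 fell and 7 rose at E16.5, 1 fell at E18.5, none changed at P0, and 91 fell and 6 rose in adults. Over all genes the shares called lower were 9.51% at E10.5 against YSM, 16.2% at E12.5, 0.508% at E14.5, 20% at E16.5 and 26.9% in adults, and the shares called higher were 10% at E10.5 against YSM, 12.9% at E16.5 and 24.2% in adults. The counts by list that follow stand against these same shares. The 3 at E14.5 were the replication genes *Mcm5*, *Gins1* and *Rrm1*, the last named after its values were seen, and the 1 at E18.5 was *Gadd45a*, a stress-induced gene known to inhibit CDK1, which had risen at E16.5 (1.81 ± 0.31) and fell back (-2.27 ± 0.31, adjusted p = 0.0007134).

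All 17 measured genes for mitotic kinesins and spindle proteins fell in adults against P0, with a median difference of -3.67 against -0.03 over all genes, among them *Prc1*, which bundles the midzone microtubules (-4.20 ± 0.14), and the chromosome motor *Kif22* (-4.11 ± 0.19). At E12.5, 6 of 17 fell, led by the spindle motors *Kifc1* (-1.34 ± 0.23) and *Kif15* (-0.92 ± 0.14), and at E16.5 8 of 17, led by *Kif18a* (-1.61 ± 0.25). All 5 measured Aurora cofactors and passenger complex genes fell in adults, with borealin (*Cdca8*) at -4.26 ± 0.20 and the Aurora A activator *Tpx2* at -3.55 ± 0.14. All 7 measured cytokinesis genes did as well, with anillin (*Anln*) at -4.32 ± 0.19. Of 16 kinetochore genes 14 fell in adults, among them the centromeric histone *Cenpa* (-3.47 ± 0.17) and *Ndc80* (-3.22 ± 0.16), while *Spc24* rose (1.01 ± 0.28), a gene named after its values were seen. Adult levels of *Tpx2* (5) and *Ndc80* (5.64) were near background, below adult *Aurkb* readings of 5.74 and 5.94 that were not detected. The size of their falls is limited by this.

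Of the 9 checkpoint genes, 6 fell in adults against P0, with *Bub1b* at -4.09 ± 0.18 and the cohesin protector *Sgo2a* at -3.84 ± 0.16, and 1 rose, *Mad2l1bp*, which silences the checkpoint (0.82 ± 0.22). At P0 against E10.5 all 9 were called lower, where 32.5% of all genes were. Of the 11 regulators and partners of CDK1, 8 fell in adults, with the G2-phase protein *Gtse1* at -2.89 ± 0.23 and the inhibitory kinase *Pkmyt1* at -1.77 ± 0.22, and *Gadd45a* rose (0.96 ± 0.31). Adult levels of *Sgo2a* (5.55), *Gtse1* (5.84) and *Pkmyt1* (4.92) were near background too, which limits the size of their falls. *Wee1*, the other inhibitory kinase of CDK1, had the largest difference of this list between E10.5 microglia and YSM (-1.94 ± 0.13, adjusted p = 1.633e-08). It stood at 5.1 in E10.5 microglia, near background, and at 7.04 in YSM, so the size of this difference is limited as well.

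Of 13 measured subunits and partners of the anaphase-promoting complex, the target of CDC20, 2 rose, *Anapc11* (0.99 ± 0.24) and *Anapc2* (0.67 ± 0.18) in adults against P0, and 2 fell, *Anapc15* (-0.61 ± 0.19) and *Anapc5* (-0.37 ± 0.10). The median difference was -0.03, equal to that of all genes. Cohesin and separase genes likewise had 3 of 10 falling and *Pttg1*, securin, rising (1.4 ± 0.35), while the acetylase *Esco2* (-3.22 ± 0.19) and sororin (*Cdca5*, -2.19 ± 0.15) fell. *Anapc11* at P0 (5.57) and *Pttg1* at E10.5 (5.4) were near background, below the adult *Aurkb* readings of 5.74 and 5.94 that were not detected. Adult levels of *Cdca5* (5.95), *Anapc15* (5.99) and *Esco2* (6.06) lay close to those readings, which limits the size of their falls. Condensin genes fell in 6 of 9, led by *Ncapd2* (-3.39 ± 0.19).

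Upstream, *Foxm1* and *Mybl2*, transcription factors of mitotic genes, fell in adults (-2.49 ± 0.13 and -1.79 ± 0.19). *Mybl2* had fallen at E12.5 (-0.77 ± 0.19) and E16.5 (-0.89 ± 0.19) too, and 6 of 12 genes of this list fell in adults. Of 21 DNA replication genes, 13 fell at E12.5 (*Gmnn*, the licensing inhibitor, at -1.50 ± 0.23, and *Cdc45* at -1 ± 0.17), and 17 fell in adults, with thymidine kinase *Tk1* at -3.65 ± 0.19. *Gmnn* at E12.5 (5.02) was also near background. Whether any list differed from the 7 genes was not tested.

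**Figure D5:**
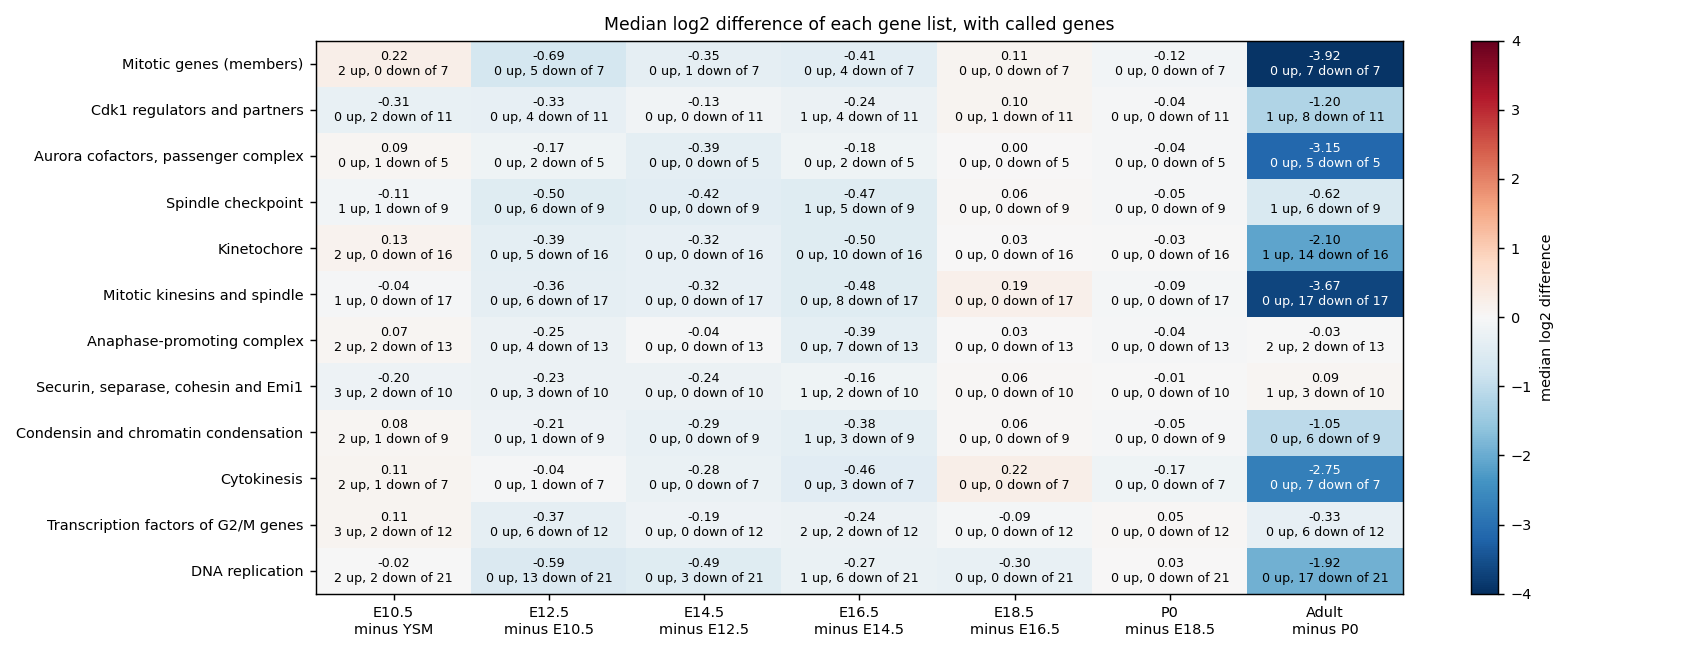
Median log2 difference of the measured genes of each list (colour and upper value) between neighbouring stages, later minus earlier, with the number called higher and lower of those measured. The spindle, passenger complex and cytokinesis lists had adult medians of -3.67, -3.15 and -2.75, and the anaphase-promoting complex -0.03.

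By level, the 10 genes outside the list most like the mean of the 7 over 25 arrays were *Kif2c* (r = 0.996), *Cenpn* (0.994), *Kif22*, *Bub1b*, *Kif4* and *Cdca8* (0.993 each), *Cenpa* (0.992), and *Cdca3*, *Cdkn3* and *Cdca2* (0.991 each). Over the 8 group means these correlations were 0.995 to 0.999. They are descriptions of likeness over arrays that share their stages.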

How the data were processed

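Probe signals of Illumina Mouse WG-6 version 2 arrays were extracted by the authors with GenomeStudio and deposited as linear intensity, not normalized, with a detection p-value per probe and array. The authors also deposited a table of quantile-normalized intensity values (lumi), used as an alternative. Column names of the signal table gave the group but not the sample, so its replicate numbers are names in file order. Those of the 4 YSM columns also carry a different date each, of which the sources used here do not say what it marks. Each replicate is a pool of several animals, so p-values measure the spread between pools.

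Signals were background-corrected and quantile-normalized with limma 3.58.1 (neqc, offset 16; R 4.3.3), and log2 values were used. Probes with 1 gene symbol (GEO platform annotation; 34885 of 45281) and detection p under 0.01 on at least 3 of 25 arrays were kept (16741), and each gene was read from its probe of highest mean (10630 genes). A fit with 1 mean per group (17 residual degrees of freedom) gave an F test and 9 comparisons, with Benjamini-Hochberg adjustment over all genes and a threshold of 0.05. Array number limits precision: the median SE of a difference was 0.188 to 0.201. On simulated data for E12.5 minus E10.5 (10630 genes, 200 of them changed), 71% of 2-fold changes and 94% of log2 changes of 2 were recovered. Of the calls made there, 6.2% were false. The measured comparison called 3262 genes, many more than were changed in the simulation, so these shares do not describe it directly. A comparison called "Tukey" follows the study's post hoc test.

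The members and lists were chosen with earlier results of these data known. From each list up to 2 called genes in each neighbouring comparison and up to 3 with the largest difference in Adult minus E10.5 could be named; *Spc24* and *Rrm1* are outside this rule. Promoter windows came from RefSeq (GRCm38.p6).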

Additional observations from a re-analysis of the deposited data

How the results depend on the processing

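Over 32 called differences and 414 combinations with an alternative setting, the arrays left out counting as 1 setting with a call lost if any array ended it, 399 kept direction and call, 15 lost the call and none reversed. Alternatives were other background corrections and scalings, the authors' table, microglial arrays only, other detection filters, the mean of probes, an intensity trend, an ordinary one-way test, the replicate block, each array left out and, chosen after seeing the data, a Tukey comparison. The 2 genes called at E10.5 against YSM were 1 under 75th percentile scaling, under the mean of probes and under the replicate block, and 1 to 2 with single arrays left out. The 1 gene called at E14.5 against E12.5 became 2, with *Aurkb*, without background correction, in the authors' table and under the replicate block, 0 under 75th percentile scaling, without a detection filter and under the mean of probes, and 0 to 1 with single arrays left out, 11 of which ended it. At E16.5 against E14.5 the 4 genes ranged over 2 to 5 with single arrays left out, and P0 against E10.5 over 5 to 6. Other counts moved by less than 1.5 times. The causes were not tested.

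Scaling to the 75th percentile shifted the median of all genes to -0.18 at E12.5, -0.29 at E16.5, 0.11 for adults against P0, -0.46 for P0 against E10.5 and -0.38 for adults against E10.5, and the share of called genes that were higher to 25.16%, 20.6%, 58.25%, 24.77% and 34.5%. *Top2a* at P0 against E10.5 also lost its call without a detection filter (adjusted p = 0.0527), with the mean of probes (-0.05, adjusted p = 0.8413) and by Tukey (adjusted p = 0.2863), and *Aurka* at E16.5 by Tukey (adjusted p = 0.07093).

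Replicate numbers did not pair the samples: over 77 same-numbered pairs, deviations correlated at -0.63 to 0.47 (median -0.01), 15 of them over 0.1. The replicate block used the authors' table; beside the counts given it called 5 genes at E16.5 against E14.5, as did both other background corrections, 75th percentile scaling and the authors' table without the block, and it left the other counts unchanged. The chip could not be used as a block, since the column names do not give it. Searching one strand left TTTGAA or TTTAAA in 8 of 9 promoter windows. In adults 4 of 21 gene and array readings were not above detection, which limits the size of that fall.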
